A study of Homo sapiens with 6 samples.

Results

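Claudins and tight junction genes were examined in cultured SW620 cells, a widely used line from a lymph node metastasis of a human colon carcinoma. The set held 10 genes picked by name from the 60835 gene names of the deposited count table: CLDN1, CLDN2, CLDN3, CLDN4, CLDN7, CLDN12, CLDN15, CLDN23, OCLN and TJP1. Libraries labelled shDNM1, with the genotype DNM1 Knockdown (stable, 3 libraries), were compared with libraries from cells with a control vector (shControl, genotype WT, 3 libraries) to find the genes whose mRNA differs when dynamin 1 is targeted. Both sets were kept in high-glucose DMEM with fetal serum. Hairpin sequences were not used here. No label says whether a set's 3 libraries stem from separate cultures, so p-values measure the spread between libraries only, and that spread may be technical. The labels also put all libraries labelled shDNM1 in batch_B and all shControl libraries in batch_A, so batch and vector cannot be told apart in any result given here.

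Tight junctions seal the space between neighbouring epithelial cells at the apical end of their lateral membranes. Claudins are membrane proteins with a pair of extracellular loops that pair up across the gap. Some of them tighten the seal, and others form channels for ions and water. Occludin (OCLN) is a MARVEL domain protein of the same strands, and TJP1 encodes ZO-1, a cytoplasmic scaffold that ties the strands to actin. In the gut, the sealing claudins and the channel claudins together set how leaky the epithelium is, and claudin levels are often altered in colorectal tumours.

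Of the claudins in the set, CLDN1, CLDN3 and CLDN7 had the largest called differences. The 250 bases before a RefSeq start of each gene (build GRCh38.p14) are shown, and these windows differ in the letters they hold. Capitals mark the GC box GGGCGG on either strand, the binding letters of SP1-type factors. The windows are chr3:190322447-190322696 (minus strand), chr7:73770271-73770520 (minus strand) and chr17:7263214-7263463 (minus strand).
CLDN1: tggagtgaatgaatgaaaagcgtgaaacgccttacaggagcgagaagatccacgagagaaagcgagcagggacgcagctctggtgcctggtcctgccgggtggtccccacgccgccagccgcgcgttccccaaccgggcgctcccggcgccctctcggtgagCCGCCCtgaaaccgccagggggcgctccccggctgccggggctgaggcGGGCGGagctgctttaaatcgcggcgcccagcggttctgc
CLDN3: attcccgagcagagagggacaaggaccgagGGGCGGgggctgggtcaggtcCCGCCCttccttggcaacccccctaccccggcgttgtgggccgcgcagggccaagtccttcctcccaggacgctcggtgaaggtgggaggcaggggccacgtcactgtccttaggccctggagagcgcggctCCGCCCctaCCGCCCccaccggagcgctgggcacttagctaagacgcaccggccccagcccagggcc
CLDN7: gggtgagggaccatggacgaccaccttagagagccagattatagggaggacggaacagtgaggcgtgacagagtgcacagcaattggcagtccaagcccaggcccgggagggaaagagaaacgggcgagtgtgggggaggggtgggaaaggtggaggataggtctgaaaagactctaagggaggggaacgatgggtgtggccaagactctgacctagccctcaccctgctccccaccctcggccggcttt
The CLDN1 window holds 2 GC boxes, that of CLDN3 holds 4 and that of CLDN7 holds 0. The same letters occur in 42.5% of the 34943 upstream windows of this length in the RefSeq table. G and C make up 68.8% of the CLDN1 window, 71.6% of the CLDN3 window and 60.4% of the CLDN7 window, against a median of 58.0% over all windows. The CLDN1 window also contains an exon of CLDN16 on the opposite strand in GENCODE release 29. RefSeq lists another start for CLDN7, whose upstream window, not shown, has 1 GC box and 71.2% G and C. The contrast of CLDN7 with CLDN1 and CLDN3 thus depends on the start taken. The windows of both CLDN7 starts lie within the gene's coordinates in the deposited count table. That other window of CLDN7 holds the E-box CACCTG 4 times (either strand). These letters, which SNAI and ZEB repressors can bind, are in 17.5% of all windows and in none of the windows of CLDN1, CLDN3 and CLDN4. The 15 starts examined belong to 9 of the 10 members, and the remaining member was left out. Of these starts, 4 have this E-box, 9 have GGGCGG, 3 have the AP-1 letters TGANTCA and 0 have TATAAA within the window. Across all windows, TGANTCA occurs in 6.59% and TATAAA in 10.8%. A match describes the letters of a window and is not a measured binding site.

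Library totals ran from 12844534 to 13537519 counts. DNM1, the targeted gene, had 126, 97.8 and 125 CPM (read counts relative to the TMM-scaled library total) in the libraries labelled shDNM1, against 127, 127 and 133 CPM in shControl libraries. Its log2 fold change of -0.15 (SE 0.083) did not pass the test (edgeR quasi-likelihood, adjusted p = 0.189), although it passed without shDNM1 replicate 1 (adjusted p = 0.0399, with a range of 0.0399 to 0.718 over 17 alternatives). Directions below thus compare sets by label, without a clear drop of DNM1 mRNA behind them. Some epithelial markers were abundant. KRT8 averaged 6939 CPM in the libraries labelled shDNM1 and 5776 CPM in shControl. CDH1 averaged 339 CPM in the libraries labelled shDNM1 and 300.2 CPM in shControl. VIL1 had 301 to 355 CPM over all libraries. The colon differentiation keratin KRT20 was low, at 0.466 CPM in the libraries labelled shDNM1 and 1.01 CPM in shControl. CDH17 was also low, at 1.42 CPM in the libraries labelled shDNM1 and 1.18 CPM in shControl. CDX2 lay between, at 19.9 CPM in the libraries labelled shDNM1 and 8.06 CPM in shControl. The 9 epithelial markers summed to 11966 to 12827 TPM in the libraries labelled shDNM1 and to 10621 to 11329 TPM in shControl. KRT8, KRT18 and KRT19 made up most of this sum. Of their 8 tested members, 5 rose and 1, EPCAM, fell, where 31.9% of all genes tested were called in either direction. The 6 leukocyte markers summed to at most 0.964 TPM in the libraries labelled shDNM1 and at most 1.90 TPM in shControl, and CD3E was at 0 in all libraries. The 6 fibroblast markers summed to 36.2 to 54.3 TPM in the libraries labelled shDNM1 and to 28.6 to 36.1 TPM in shControl, of which LUM, PDGFRB and COL1A1 made up nearly all, with COL3A1 at 0 throughout. The 6 endothelial markers summed to 10.4 to 13.0 TPM in the libraries labelled shDNM1 and to 9.19 to 10.5 TPM in shControl, with KDR at 0. In the fibroblast and the endothelial list 2 of 3 tested genes rose, and the part of these markers in the results below was not tested. In such bulk libraries, fewer cells with a transcript and less of it per cell cannot be told apart.

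CLDN1 and CLDN12 rose and CLDN3, CLDN7 and TJP1 fell in the libraries labelled shDNM1. Of the 10 genes, 9 passed the low-count filter and were tested, and 5 of these were called at an adjusted p of 0.05 (2 higher, 3 lower). Over all 16744 genes tested, 31.9% were called, 15.6% higher (2617) and 16.2% lower (2720); on the log2(TPM + 1) scale 1801 were higher and 2846 lower. The CPM ranges of the 2 sets did not overlap for 7 of the 9 tested members, against 44.3% of all genes tested. The median log2 fold change was -0.17 over the 9 tested members and -0.01 over all genes tested. Of the 9, 7 lay below 0, but the members were spread from -1.37 to 0.51 and the calls went in both directions. The member that failed the filter was CLDN2.

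**Figure D1:**
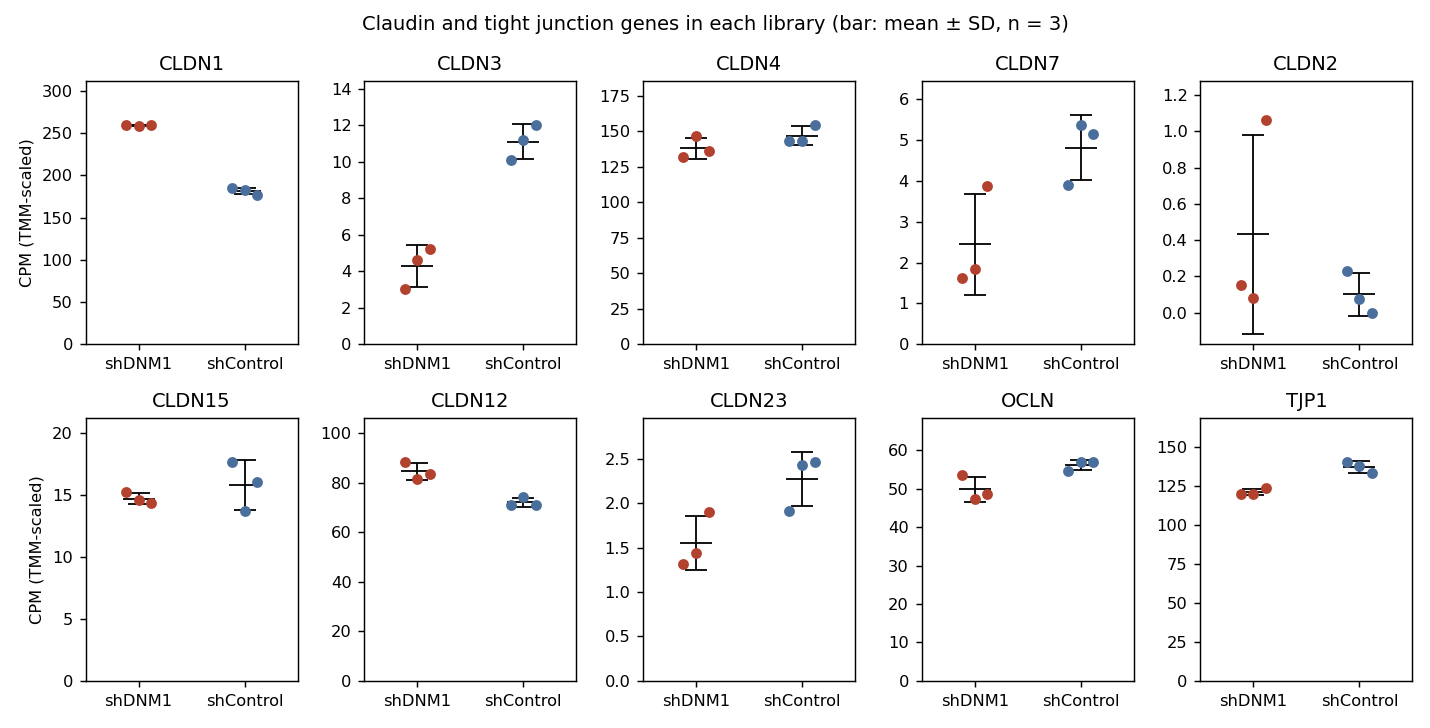
TMM-scaled CPM of the 10 genes in each library (points), with the libraries labelled shDNM1 on the left and shControl on the right of each panel, and the mean and SD of 3 libraries (bars); each vertical axis has its own scale. CLDN1 sits near 259 CPM in the libraries labelled shDNM1 and near 181 CPM in shControl, whereas CLDN3 sits at 3.03 to 5.24 CPM in the libraries labelled shDNM1 and at 10.1 to 12.03 CPM in shControl.

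Among the sealing claudins, CLDN3 had the largest difference. CLDN3 (ENSG00000165215, chromosome 7, 73768997 to 73770270, minus strand) had 39, 58 and 69 counts in the libraries labelled shDNM1, against 132, 152 and 156 counts in shControl. After scaling these were 3.03, 4.62 and 5.24 CPM in the libraries labelled shDNM1 and 10.1, 11.2 and 12.03 CPM in shControl. Every library labelled shDNM1 lay far below every control. CLDN3 fell to 0.388 of its shControl level (95% interval 0.295 to 0.509), a log2 fold change of -1.37 (SE 0.19, adjusted p = 1.98e-05). Its absolute change was larger than that of 97.8% of all genes tested. The CLDN3 call held under all 17 alternatives, with log2 fold changes from -1.54 to -1.17.

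CLDN1 was the most abundant claudin and rose in all libraries labelled shDNM1. CLDN1 (ENSG00000163347, chromosome 3, 190305707 to 190322446, minus strand), a sealing claudin needed for the skin barrier in mice, had 259.6, 258 and 259.6 CPM in the libraries labelled shDNM1, against 184, 183 and 177 CPM in shControl. The libraries labelled shDNM1 differed from each other by far less than from any control. The rise was 1.43-fold (95% interval 1.31 to 1.55), a log2 fold change of 0.51 (SE 0.058, adjusted p = 2.52e-06), and the call held under all 17 alternatives (0.45 to 0.53).

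CLDN7 fell, with 1 library set apart. CLDN7 (ENSG00000181885, chromosome 17, 7259903 to 7263983, minus strand), which binds the adhesion protein EpCAM in intestinal epithelium, had 21, 23 and 51 counts in the libraries labelled shDNM1, against 51, 73 and 67 counts in shControl. In CPM these were 1.63, 1.83 and 3.88 in the libraries labelled shDNM1 and 3.91, 5.38 and 5.16 in shControl. Replicate 3 of the libraries labelled shDNM1 thus lay just under the lowest control, and the other two lay far below it. CLDN7 fell to 0.511 of its shControl level (95% interval 0.336 to 0.775, log2 fold change -0.97, SE 0.29, adjusted p = 0.0144). Without shDNM1 replicate 3 the log2 fold change was -1.47 (adjusted p = 0.00122). The call was lost without shControl replicate 2 (adjusted p = 0.0586), shControl replicate 3 (adjusted p = 0.0518) or shDNM1 replicate 2 (adjusted p = 0.0519), within a range of 0.000722 to 0.0586 over 17 alternatives. CLDN7 overlaps ELP5 on the opposite strand by 38 bases in the deposited coordinates. It is not given whether counting used strand, and ELP5 averaged 882 counts in the libraries labelled shDNM1 and 902 in shControl (log2 fold change 0.01, SE 0.084, adjusted p = 0.956).

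CLDN4, a sealing claudin that limits sodium passage, did not pass the test. CLDN4 (ENSG00000189143, chromosome 7, 73799542 to 73832690, plus strand) had 132, 146 and 136 CPM in the libraries labelled shDNM1, against 143, 143 and 154 CPM in shControl. The CPM ranges overlapped. In TPM they did not, at 94.7 to 99.3 in the libraries labelled shDNM1 and 103.2 to 113.0 in shControl. The CPM level in the libraries labelled shDNM1 was 0.939 of that in shControl (95% interval 0.854 to 1.03, log2 fold change -0.09, SE 0.065, adjusted p = 0.318). CLDN4 did not pass under any of 17 alternatives (adjusted p = 0.0624 to 0.643), with the lowest on the TPM scale (0.0624 and 0.0656).

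**Figure D2:**
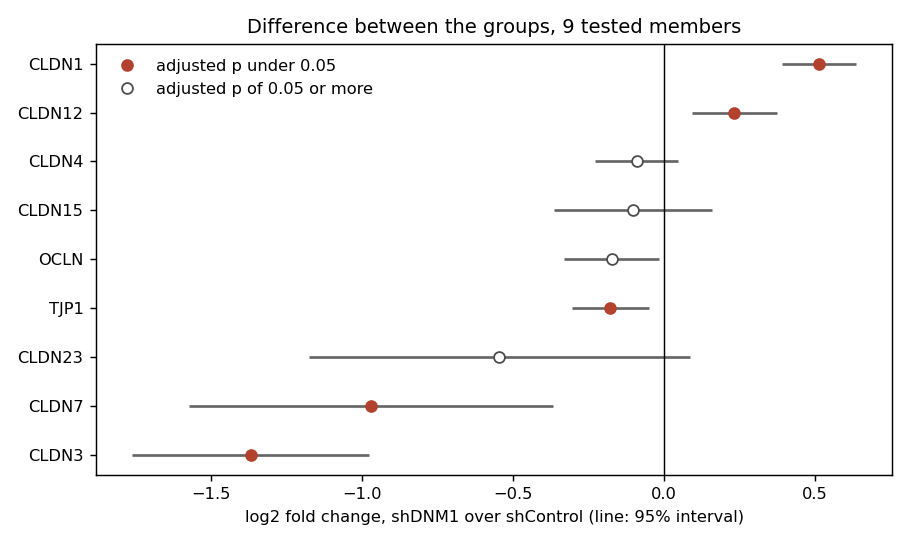
Log2 fold change of the 9 tested members, libraries labelled shDNM1 over shControl (horizontal axis), with 95% intervals from the edgeR fit (lines); filled points have an adjusted p under 0.05. CLDN1 (0.51) and CLDN12 (0.23) lie to the right of 0, TJP1 (-0.18), CLDN7 (-0.97) and CLDN3 (-1.37) to the left, and the other 4 did not pass.

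CLDN3 and CLDN4 are neighbours in the Williams syndrome region of chromosome 7, transcribed away from each other with 29.3 kb between their deposited coordinates. The RefSeq upstream window of CLDN4 (chr7:73830746-73830995) lies within its deposited coordinates, so this distance depends on the start taken. Distances here and below use the deposited coordinates. CLDN3 was called lower and CLDN4 was not called. The TPM (the deposited measure, scaled per transcript length) of CLDN3 over that of CLDN4 was 0.0752, 0.103 and 0.126 in the libraries labelled shDNM1, against 0.231, 0.256 and 0.254 in shControl. All 3 ratios were lower in the libraries labelled shDNM1 than in any control (log2 difference -1.31, exact two-sided permutation p = 0.1, the smallest that 3 libraries against 3 can give). This ratio is within a library and needs no scaling between libraries. The TPM of CLDN1 over that of CLDN4 averaged 2.27 ± 0.13 in the libraries labelled shDNM1 and 1.495 ± 0.096 in shControl (SD, n = 3 each), and CLDN1 over CLDN3 averaged 23.5 ± 7.2 in the libraries labelled shDNM1 and 6.07 ± 0.65 in shControl. Each of the 3 ratios had an exact permutation p of 0.1, also when adjusted over the 3, which are built from the same genes. In TPM, CLDN1 was higher and CLDN3 and CLDN4 lower in every library labelled shDNM1 than in any control. The ratios with CLDN1 thus had to separate, and their p adds nothing to the values of the genes.

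The surroundings of the CLDN3 and CLDN4 genes were examined after their values were seen. Of 14 tested genes within 300 kb on either side, 1 was called higher, 3 lower and 10 did not pass. Over all genes tested, 31.9% were called, so the share called in the window did not stand out. Besides CLDN3, those called lower were ABHD11, a mitochondrial hydrolase gene whose start lies 31.4 kb from that of CLDN3 (log2 fold change -0.50, SE 0.11, adjusted p = 0.00172), and MLXIPL, which encodes the carbohydrate-response factor ChREBP (-0.73, SE 0.099, adjusted p = 2.06e-05). LIMK1, an actin regulator kinase gene, was higher (0.46, SE 0.097, adjusted p = 0.0013). After CLDN3, MLXIPL had the largest called difference of the window.

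**Figure D3:**
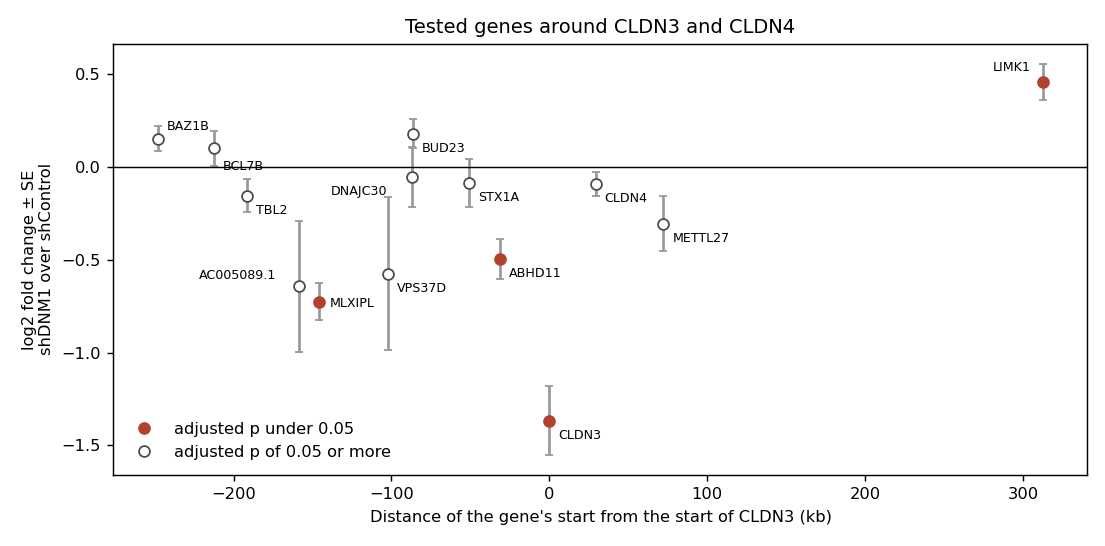
Log2 fold change ± SE of the 14 tested genes around CLDN3 and CLDN4, libraries labelled shDNM1 over shControl (vertical axis), by the distance of each gene's start from that of CLDN3 in kb (horizontal axis); filled points have an adjusted p under 0.05. CLDN3 at -1.37 lies lowest, CLDN4 at -0.09 lies near 0, and ABHD11 (-0.50), MLXIPL (-0.73) and LIMK1 (0.46) are the other called genes.

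The channel-forming claudins were low or did not pass. CLDN15 (ENSG00000106404, chromosome 7, 101232092 to 101238820), which forms sodium channels in the small intestine, had 15.2, 14.6 and 14.4 CPM in the libraries labelled shDNM1, against 17.7, 13.7 and 16.0 CPM in shControl. The ranges overlapped, and the log2 fold change of -0.10 (SE 0.12, adjusted p = 0.575) had a 95% interval of 0.778-fold to 1.12-fold. CLDN2 (ENSG00000165376, chromosome X, 106900164 to 106930861), the leaky-gut claudin that passes sodium and water, had 2, 1 and 14 counts in the libraries labelled shDNM1, against 3, 1 and 0 counts in shControl. Replicate 3 gave 14 of the 17 counts in the libraries labelled shDNM1. A library needs about 3 counts, 0.222 to 0.234 CPM, to stand above the limit that a count of 0 allows, and only replicate 3 labelled shDNM1 exceeded that number. Fitted without the filter, its log2 fold change was 2.01 (adjusted p = 0.161). CLDN2 lies entirely within MORC4 on the opposite strand, which averaged 432 counts in the libraries labelled shDNM1 and 479 in shControl.

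Of the remaining claudins of the set, CLDN12 rose and CLDN23 did not pass. CLDN12 (ENSG00000157224, chromosome 7, 90383721 to 90513402), an unusual claudin without the usual scaffold-binding tail, had 88.6, 81.8 and 83.8 CPM in the libraries labelled shDNM1, against 71.2, 74.2 and 70.9 CPM in shControl. The ranges did not overlap, and CLDN12 rose 1.17-fold (95% interval 1.07 to 1.30, log2 fold change 0.23, SE 0.067, adjusted p = 0.0127). The call was lost without shControl replicate 1 or 3 (adjusted p = 0.0526 and 0.076) and on the TPM scale (0.0732 and 0.075), within a range of 0.00633 to 0.076 over 17 alternatives. CLDN12 shares 7733 bases with GTPBP10 on the same strand, whose log2 fold change was 0.03 (SE 0.095, adjusted p = 0.845). CLDN23 (ENSG00000253958, chromosome 8, 8701937 to 8704096), a single-exon claudin of surface colonocytes, had 17, 18 and 25 counts in the libraries labelled shDNM1, against 25, 33 and 32 counts in shControl. In CPM, replicate 3 labelled shDNM1 (1.90) lay just under the lowest control (1.92). The log2 fold change of -0.55 (SE 0.30) did not pass (adjusted p = 0.181), with a 95% interval of 0.442-fold to 1.06-fold.

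For the strand protein occludin and the scaffold ZO-1 the differences were small. OCLN (ENSG00000197822, chromosome 5, 69492292 to 69558104) had 53.4, 47.4 and 48.6 CPM in the libraries labelled shDNM1, against 54.6, 56.9 and 57.0 CPM in shControl. Its log2 fold change of -0.17 (SE 0.075) did not pass over all genes (adjusted p = 0.0886), although it did without shDNM1 replicate 1 (-0.22, adjusted p = 0.0237) and when counts were scaled only by library size (-0.21, adjusted p = 0.0485), within a range of 0.0237 to 0.217 over 17 alternatives. The pseudogene OCLNP1, with which reads could be shared, had at most 1 count in any library. TJP1 (ENSG00000104067, chromosome 15, 29699367 to 29968915) had 119.8, 119.9 and 124 CPM in the libraries labelled shDNM1, against 140.4, 137 and 133 CPM in shControl. The ranges did not overlap, and TJP1 fell to 0.884 of its shControl level (95% interval 0.809 to 0.967, log2 fold change -0.18, SE 0.061, adjusted p = 0.0341). The call was lost under 8 of 17 alternatives, among them those that dropped 1 shControl library (adjusted p = 0.156 for replicate 1, 0.0895 for 2 and 0.0611 for 3) or shDNM1 replicate 2 or 3 (0.0614 and 0.0638), within a range of 0.0105 to 0.156. A pseudogene on the opposite strand within TJP1, HMGN2P5, averaged 73.7 counts in the libraries labelled shDNM1 and 126 in shControl, and its part in the TJP1 count was not tested.

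Per length, CLDN1 led the claudins in both sets and held a larger share in the libraries labelled shDNM1. Over the 24 claudins in the table, TPM summed to 567, 565 and 598 in the libraries labelled shDNM1, against 537, 525 and 534 in shControl. CLDN1 made up 39.8%, 37.4% and 37.3% of this sum in the libraries labelled shDNM1 and 30.8%, 30.4% and 29.3% in shControl. CLDN3 made up 1.26%, 1.82% and 2.04% in the libraries labelled shDNM1 and 4.57%, 5.04% and 5.39% in shControl. The ranges of these shares did not overlap for either gene. Nor did those of CLDN4, at 16.7%, 17.6% and 16.2% in the libraries labelled shDNM1 and 19.8%, 19.7% and 21.2% in shControl. The shares of CLDN7 and CLDN23 were also lower in every library labelled shDNM1 than in any control. Shares of one sum depend on each other, so a larger share of CLDN1 by itself lowers those of the others. The 8 claudins of the set together held 73.4% ± 1.8 of claudin TPM in the libraries labelled shDNM1 and 73.3% ± 0.34 in shControl (SD, n = 3 each).

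The order of the 10 genes by mean TPM in the libraries labelled shDNM1 was CLDN1 (220.1), CLDN4 (96.9), CLDN12 (69.6), TJP1 (44.6), OCLN (22.7), CLDN15 (20.2), CLDN3 (9.86), CLDN7 (3.74), CLDN23 (2.10) and CLDN2 (0.432). In shControl it was CLDN1 (160.4), CLDN4 (107.5), CLDN12 (61.6), TJP1 (52.5), OCLN (26.58), CLDN3 (26.57), CLDN15 (22.6), CLDN7 (7.62), CLDN23 (3.20) and CLDN2 (0.105). Within the libraries labelled shDNM1, the ranges of OCLN and CLDN15 and those of CLDN7 and CLDN23 overlapped. Within shControl, OCLN overlapped with CLDN3 and CLDN3 with CLDN15, and all other neighbours in either order stood apart.

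**Figure D4:**
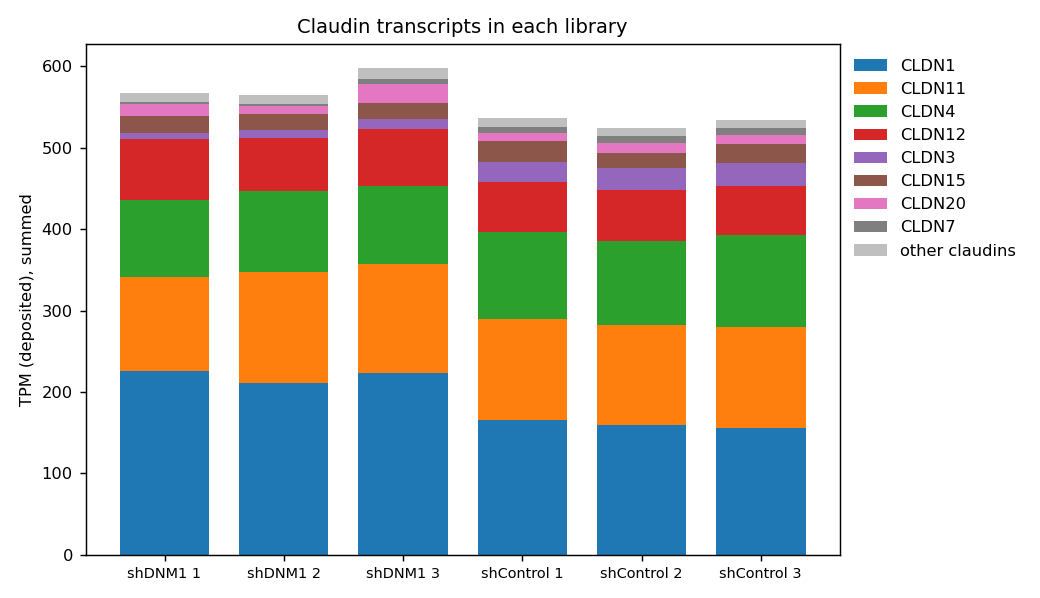
Deposited TPM of the claudins stacked for each library, with libraries labelled shDNM1 on the left and shControl on the right; the 8 claudins highest in shControl have their own colour and the others are pooled in light grey. The stack totals 565 to 598 TPM in the libraries labelled shDNM1 and 525 to 537 TPM in shControl, and the CLDN1 block is taller and the CLDN3 block thinner in the libraries labelled shDNM1.

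Of the 16 claudins outside the set, 4 passed the filter and 1 rose, with a list median log2 fold change of 0.42. Among all genes tested, 15.6% were called higher. CLDN11, best known from myelin and testis, ranked second among all claudins at 128.5 ± 11.5 TPM in the libraries labelled shDNM1 and 123.5 ± 0.89 TPM in shControl (SD, n = 3 each) and did not pass (log2 fold change 0.12, SE 0.076, adjusted p = 0.263), except without shDNM1 replicate 1 (adjusted p = 0.00987). CLDN20 had 14.8, 10.2 and 23.1 TPM in the libraries labelled shDNM1, against 10.4, 11.4 and 10.9 TPM in shControl, and did not pass (adjusted p = 0.0559). CLDN20 did pass under 6 of 17 alternatives, within a range of adjusted p of 0.00647 to 0.412. CLDN11, CLDN16 and CLDN20 were named after their values were seen. CLDN19, a claudin of the kidney tubule, rose 1.73-fold to 5.48 ± 0.60 CPM in the libraries labelled shDNM1, against 3.15 ± 0.24 CPM in shControl (SD, n = 3 each, adjusted p = 0.00578). Without shDNM1 replicate 1, 3 of these claudins were called higher, and without shDNM1 replicate 2, 2 were. CLDN16, next to CLDN1 on the opposite strand, averaged 2.81 CPM in the libraries labelled shDNM1 and 2.42 CPM in shControl and did not pass (adjusted p = 0.624).

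Other membrane and plaque proteins of the tight junction held calls in both directions. The list counts here and below stand beside the 31.9% called over all genes tested (15.6% higher, 16.2% lower). The membrane list did not exceed that share. Of 8 tested membrane proteins outside the set, CXADR, a junctional adhesion protein and virus receptor, rose 1.22-fold (adjusted p = 0.0115), MARVELD3, a MARVEL relative of occludin, fell to 0.742 (adjusted p = 0.00174), and 6 did not pass. The CXADR call was lost without shControl replicate 2 (adjusted p = 0.0509) and on the TPM scale (0.0982 and 0.091), within a range of 0.00775 to 0.0982 over 17 alternatives. Of 14 tested plaque scaffolds, 4 rose, 4 fell and 6 did not pass, and without shControl replicate 3 or shDNM1 replicate 3 only 2 rose. AMOT, an angiomotin that binds the PATJ scaffold, fell to 3.03 ± 0.079 CPM in the libraries labelled shDNM1, against 10.8 ± 1.4 CPM in shControl (SD, n = 3 each, adjusted p = 4.00e-07). MAGI3 fell to 0.733 of control (adjusted p = 0.00040), and CGNL1, which encodes paracingulin, rose 1.35-fold (adjusted p = 7.33e-05). The list median was -0.09 for these scaffolds and 0.05 for the membrane proteins, beside -0.01 over all genes tested.

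Of 13 tested genes of cell polarity complexes, 4 rose and 9 did not pass, with a list median of 0.10. Counted in either direction, this share is close to the 31.9% called over all genes tested. All of these calls were higher, where 15.6% of all genes tested were called higher. PARD6B rose 1.33-fold (adjusted p = 0.000543), DLG1 1.24-fold (adjusted p = 0.00209) and LLGL2 1.19-fold (adjusted p = 0.00609). The LLGL2 call was lost without shControl replicate 3 or shDNM1 replicate 3 (adjusted p = 0.0538 and 0.0553). On the TPM scale the DLG1 and LLGL2 calls were lost and 2 genes of the list rose.

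Adherens junctions and desmosomes, which lie below the tight junction, also held calls in both directions. In the adherens junction list, 3 of 9 tested genes rose and 2 fell, and 1 fell without any 1 of shControl replicates 1, 2 and 3 or shDNM1 replicates 1 and 3. P-cadherin (CDH3) fell to 0.486 (adjusted p = 3.12e-05) and NECTIN1 rose 1.64-fold (adjusted p = 1.19e-06). NECTIN4, too low for the naming rule and added after its values were seen, had 22, 18 and 29 counts in the libraries labelled shDNM1, against 5, 3 and 4 counts in shControl (log2 fold change 2.52, SE 0.44, adjusted p = 0.000221). E-cadherin (CDH1) rose 1.13-fold (adjusted p = 0.0441), a call lost under 10 of 17 alternatives, among them those that dropped 1 shControl library (adjusted p = 0.173 for replicate 1, 0.0885 for 2 and 0.0781 for 3) or shDNM1 replicate 2 or 3 (0.115 and 0.127). In the desmosome list, 2 of 9 rose and 3 fell. The list medians were -0.03 for the adherens junction and -0.20 for the desmosome. Plakoglobin (JUP) rose 1.47-fold (adjusted p = 2.84e-06), while PERP, a membrane protein of desmosomes, fell to 0.683 (adjusted p = 1.27e-06) and PKP4 to 0.784 (adjusted p = 0.000737).

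Of 10 tested claudin partners and modifying proteins, 3 rose and 3 fell, with 1 higher without shControl replicate 1, and 1 higher and 1 lower without shControl replicate 3 or shDNM1 replicate 3. The list median was -0.07. EPHA2, a receptor kinase that phosphorylates claudin-4, rose 2.07-fold (adjusted p = 3.63e-09). The tetraspanin TSPAN8 fell to 1.98 ± 0.56 CPM in the libraries labelled shDNM1, against 5.07 ± 0.16 CPM in shControl (SD, n = 3 each, adjusted p = 0.000318). SPINT2, an inhibitor of the matriptase that cleaves EpCAM, rose 1.15-fold (adjusted p = 0.0169), a call that failed when shControl replicate 1 (adjusted p = 0.0754) or 3 (0.0595) or shDNM1 replicate 3 (0.0731) was dropped.

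Of 13 tested epithelial and junction transcription factors, 5 rose, 2 fell and 6 did not pass, with a list median of 0.12. SNAI2, the repressor Slug that can bind E-boxes of junction genes, rose 2.70-fold (adjusted p = 4.54e-06). It averaged 14.0 ± 2.0 CPM in the libraries labelled shDNM1 and 5.19 ± 1.1 CPM in shControl (SD, n = 3 each). The other SNAI and ZEB genes of the list were named after their values were seen. ZEB1 rose (log2 fold change 0.56, adjusted p = 0.00886). SNAI1 did not pass (0.32, adjusted p = 0.0894), except without shDNM1 replicate 1 (adjusted p = 0.0237), and ZEB2 failed the low-count filter. CDX2, the intestinal identity factor, rose to 19.9 ± 1.5 CPM in the libraries labelled shDNM1, against 8.06 ± 1.5 CPM in shControl (SD, n = 3 each, 2.47-fold, adjusted p = 1.66e-06). GATA6 fell to 0.646 (adjusted p = 0.0474), a call that was lost without any 1 of the shControl libraries (adjusted p = 0.0927 to 0.122) and without shDNM1 replicate 1 or 3 (0.163 and 0.0774). Without shDNM1 replicate 2, 1 factor of this list was called lower, and without any other single library neither of the 2 calls held. Whether any of these factors acts on the claudins was not measured.

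**Figure D5:**
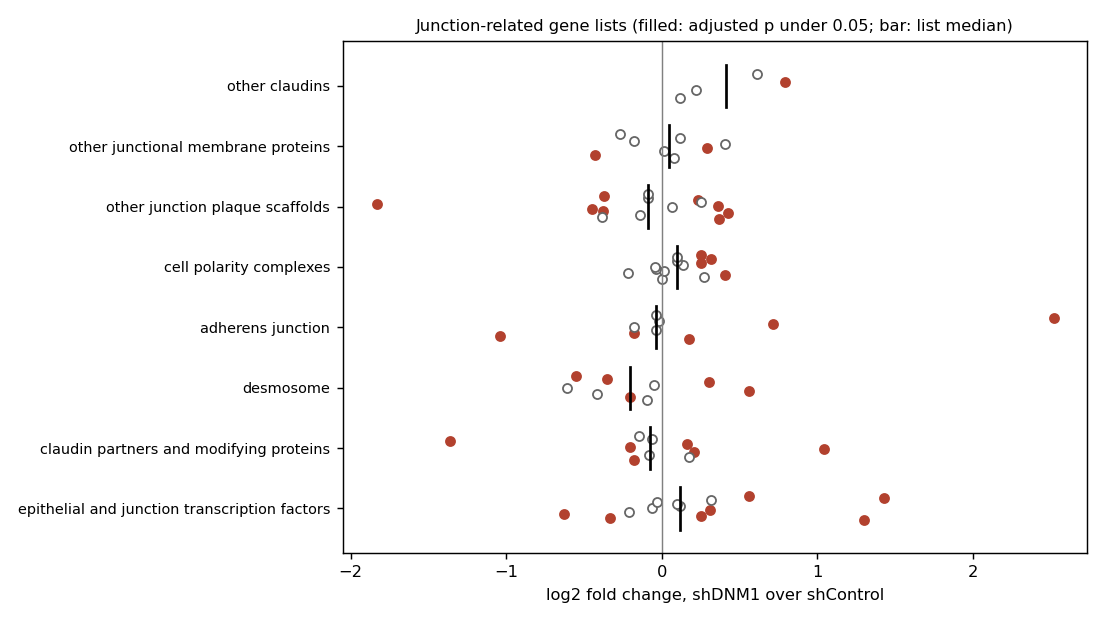
Log2 fold change of each tested gene (points) in 8 junction-related lists, libraries labelled shDNM1 over shControl (horizontal axis); filled points have an adjusted p under 0.05 and vertical bars give the list medians. Each list median lies between -0.20 and 0.42, and all but 2 lists hold filled points on both sides of 0.

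The genes whose profiles over the 6 libraries were most like those of CLDN1 and CLDN3 were found by the root mean square distance of centred log2 CPM among 12016 genes. Nearest to CLDN1 were the G protein-coupled receptor kinase gene GRK5 (distance 0.020), the phosphoinositide kinase gene PIP5K1C (0.021) and the transcription factor gene MYRF (0.023). Their log2 fold changes were 0.53, 0.51 and 0.54. Nearest to CLDN3 were PRR15 (0.12), the creatine kinase gene CKB (0.14) and the membrane-type protease gene MMP15 (0.16), with log2 fold changes of -1.25, -1.32 and -1.14. PRR15 is on chromosome 7 like CLDN3, and the others lie on other chromosomes than the claudin they resemble. The likeness rests on 6 libraries that fall into 2 sets and is given as a description.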

How the data were processed

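Total RNA of SW620 cells was made into 6 SMARTer mRNA-seq libraries, per the labels' protocols. The authors deposited whole-number read counts per gene and TPM values; the submitters' processing notes name the build GRCh38. Not given in the sources used here are the aligner and counter, the strand setting, and the gene lengths behind the deposited TPM (treated as a score, not as counts). The 2328 lines that share 453 gene names hold identical values per name, and 1 line per name was kept (60835 names). Counts were tested with edgeR 4.0.16 (R 4.3.3, quasi-likelihood F test, TMM scaling, filterByExpr with a minimum count of 10 and total of 15), with Benjamini-Hochberg adjustment over 16744 genes and a threshold of 0.05. CPM are TMM-scaled. Totals of 12844534 to 13537519 counts set the precision, and floors of 3 counts cover counting error only. TPM served for levels, shares and ratios. Alternatives used limma 3.58.1, DESeq2 1.42.0 and other scalings and filters. Figures used matplotlib 3.10.9. The fit was tested on simulated data. Named genes were all members, DNM1, up to 3 called genes per list by size of change (average log2 CPM of at least 1), and the 3 nearest profiles of the member with the largest called rise and that with the largest called fall. The members and lists were chosen with earlier results of these data known. Upstream windows were examined for all members but CLDN23, which was left out of the motif counts. No batch term could be fitted. The result of 1 gene list is not reported here.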

Additional observations from a re-analysis of the deposited data

How the results depend on the processing

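Over 17 alternatives the 9 tested members gave 153 values, of which 136 kept their call and direction, 15 lost the call, 2 gained one and 0 reversed. CLDN2 had a value only without the low-count filter (log2 fold change 2.01). With log2(TPM + 1) and log2(TPM + 0.1), 1 member was called higher in place of 2. Leaving out 1 library at a time gave 1 to 2 members called higher and 1 to 4 called lower. Over all alternatives, 1799 to 2964 genes were called higher and 2034 to 3116 lower. Same-numbered libraries had correlations of their deviations of 0.0957, 0.0586 and -0.0307. Replicates 1 and 2 labelled shDNM1 correlated best with their own number and replicate 3 did not. Whether the numbers pair the libraries was thus not settled. With the replicate block, 2 members were called higher and 3 lower, as without it, and 2964 genes were called higher and 3116 lower. No other scaling moved the median of all genes by over 0.1 on the log2 scale. Depth limited CLDN2, CLDN7 and CLDN23 most, which had at most 14, 73 and 33 counts in a library.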
